A study of Mus musculus with 24 samples.

Results

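Transcripts of 9 nuclear genes for mitochondrial chaperones and proteases were followed in quadriceps femoris muscle of mice: Hspd1, Hspe1, Hspa9, Trap1, Grpel1, Dnaja3, Lonp1, Clpp and Clpx. They were taken by gene symbol from the 18669 genes of the count table, and all 9 were found. All 9 were also among the 13754 genes tested, and the lowest count of any of them in any library was 293. Poly(A) RNA was sequenced from 24 mice, 2 in each of 12 groups, taken 4 h after treatment, all on a CBA x C57BL/6 F1 background. Each of 3 genotypes (wild type, R6/2 and Hsf1-/-) was given heat shock (HS), the control procedure for HS, the HSP90 inhibitor HSP990 or its vehicle. Under isoflurane and in a heating pad, the core of HS mice was kept at 41.5 °C for 15 min, and that of control mice at 36.9 °C for 21 min. HSP990 was given at 12 mg/kg in methyl cellulose in saline, while the labels name only saline for the vehicle. Wild type and R6/2 mice were 12 weeks old. Hsf1-/- mice were 10 weeks old in the HS and control groups and 8 weeks old in the HSP990 and vehicle groups, so genotype and age cannot be told apart wherever they are set against wild type mice. R6/2 mice carry a transgene for exon 1 of mutant huntingtin and model Huntington's disease (HD). Hsf1-/- mice lack heat shock factor 1 (HSF1), and nothing in the labels gives the sex of any mouse.

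Nearly all mitochondrial proteins are made in the cytosol, imported unfolded and folded again in the matrix. Hspa9 (mitochondrial HSP70), which has Dnaja3 as a J-domain partner, pulls them in together with its nucleotide exchange factor Grpel1. Many are then folded in the barrel formed by Hspd1 (HSP60), which is closed by its lid Hspe1 (HSP10). Trap1 is the mitochondrial relative of HSP90, and the ATP-dependent protease Lonp1 and the protease pair of Clpx (unfoldase) and Clpp (peptidase) degrade proteins that stay misfolded. HSF1 is the transcription factor of the cytosolic heat shock response and binds heat shock elements, inverted repeats of the letters GAA. Inhibitors of HSP90 activate it without heat. A separate mitochondrial stress response is also known to raise genes of this set.

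The main pattern was a division of the set. Hspd1 and Hspe1 rose together after HS and after HSP990 in wild type mice, where 2.06% and 1.85% of all genes were called. They were also called after HSP990 in R6/2 mice (1.43% of all genes), but not in a fit of only the groups compared. No rise of either was called in Hsf1-/- mice. The other 7 members were called after no treatment in any genotype. In untreated R6/2 mice, by contrast, 7 of the 9 were lower than in wild type mice with TMM scaling, where 30.5% of all genes were called and 15.4% were lower, and library size alone changed which members were called.

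Hspd1 and Hspe1 are also neighbours. They lie head to head on chromosome 1, Hspd1 on the minus strand (gene identifier 15510; 55134679 to 55145087 in mm9) and Hspe1 on the plus strand (15528; 55144976 to 55148151 in mm9), and 112 exonic bases of the annotation belong to both. The stretch between a start of Hspd1 and the start of Hspe1 is printed here because it is upstream of Hspe1 and of that start of Hspd1. From the start of the other Hspd1 window (chr1:55088194-55088493, minus strand), the stretch lies downstream. It is chr1:55087933-55088147 in GRCm38.p6, was cut from the RefSeq promoter window of Hspe1 (plus strand) and holds 215 bases. Capitals mark the run of heat shock element letters.
Hspe1: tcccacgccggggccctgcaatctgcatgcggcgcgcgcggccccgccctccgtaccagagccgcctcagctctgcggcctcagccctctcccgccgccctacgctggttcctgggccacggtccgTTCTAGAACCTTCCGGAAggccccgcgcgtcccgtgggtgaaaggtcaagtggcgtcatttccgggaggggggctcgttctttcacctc
The capital run of 18 bases starts 127 bases from the Hspd1 start that bounds the stretch and ends 72 bases from the Hspe1 start. It holds 2 overlapping matches to a three-unit element. On the strand of Hspd1 the run reads as follows.
Hspd1: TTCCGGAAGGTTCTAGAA
The letters searched were GAANNTTCNNGAA and TTCNNGAANNTTC, each the reverse complement of the other, so that both strands were covered. Of 32851 RefSeq promoter windows of 300 bases (250 before and 50 after a start), 0.603% held this three-unit element. Windows were given for 8 of the 9 members, Hspa9 being the other, and 2 members held the element, Hspd1 (in 1 of its windows) and Hspe1, which share 285 bases of their windows. Clpp held a single two-unit match (TTCNNGAA, found in 8.52% of windows), and the windows of Trap1, Grpel1, Dnaja3, Lonp1 and Clpx held neither that nor GAANNTTC (7.86% of windows). A match is only a description of the letters. Among cytosolic genes that mark these treatments, Hsph1 held the three-unit element, Hspa1b only a two-unit match and Dnajb1 none in this stretch, although all 3 rose after both treatments in wild type mice.

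Libraries held 22450177 to 46599238 counts. Levels are given in CPM, counts brought to 1 common library total after TMM scaling, and differences are log2 fold changes from edgeR's quasi-likelihood test fitted over all 12 groups. A gene was called at a Benjamini-Hochberg adjusted p below 0.05 over all genes tested in a comparison. An exact permutation test of 2 mice against 2 cannot go below p = 0.333, so every call uses a spread estimated from all groups at once. Hsf1 itself was at 52.9 to 68.55 CPM in wild type, 45.3 to 53.7 in R6/2 and 21.1 to 29.0 in Hsf1-/- mice. Its reads were thus lower but not absent in Hsf1-/- libraries (untreated log2 fold change -1.26, adjusted p = 4.33e-07), and a count per gene does not show whether the deleted part was covered. All 10 muscle fibre markers were detected, none at 0, and the labelled tissue was thus seen in its markers. Their summed level was 192800 to 243500 CPM in wild type, 185700 to 255100 in Hsf1-/- and 38800 to 84280 in R6/2 mice. TMM scaled R6/2 libraries by factors of 1.19 to 1.395, and all others by 0.8079 to 0.954.

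**Figure D1:**
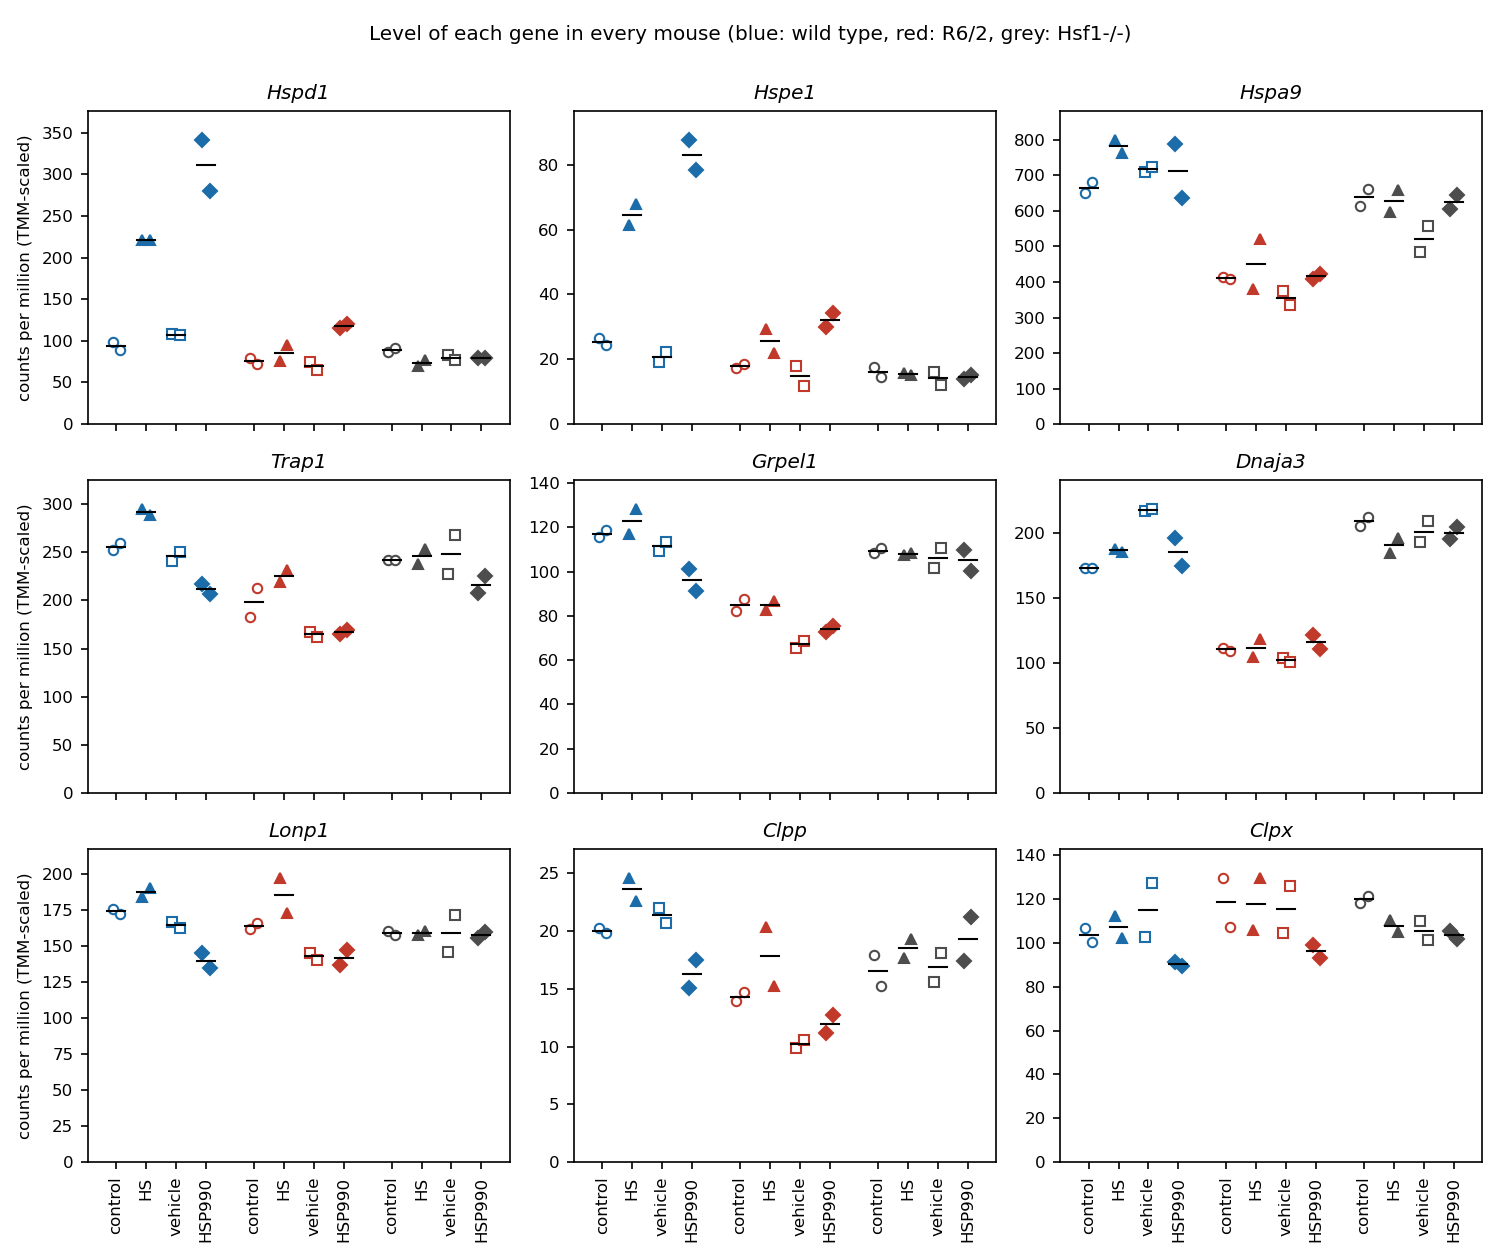
Level of each of the 9 genes in every mouse, in CPM after TMM scaling (y axis, from 0) by group (x axis). Each symbol is 1 mouse, filled after HS or HSP990, and the line is the mean of the 2 mice of a group. Hspd1 and Hspe1 stand out in the treated wild type groups, where Hspd1 reached 342 and Hspe1 87.7, whereas every R6/2 mouse lies below every other mouse for Grpel1 and Dnaja3.

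In mm9, Hspa9 (gene identifier 15526) lies on chromosome 18 (35097068 to 35114011), Trap1 (68015) and Dnaja3 (83945) on chromosome 16 (4039971 to 4078410 and 4639989 to 4707695) and Grpel1 (17713) on chromosome 5 (36807647 to 36816729). Lonp1 (74142) and Clpp (53895) lie on chromosome 17 (56753724 to 56766326 and 57129687 to 57135794) and Clpx (270166) on chromosome 9 (65142067 to 65178465). Levels were first compared between the genes, per kilobase of the longest coding transcript, in the 4 untreated (control and vehicle) wild type mice. Hspa9 was highest with a median of 228 CPM per kilobase (range 213 to 238), followed by Trap1 with 108 (104 to 112). Dnaja3 had a median of 73.7 (65.4 to 82.8) and Lonp1 of 57.2 (54.8 to 59.2). The chaperonin Hspd1 had 42.3 (36.8 to 44.5) and the unfoldase Clpx 36.4 (34.8 to 44.2), and these neighbours overlapped. Grpel1 with 32.5 (31.0 to 33.6) and the lid Hspe1 with 30.0 (24.8 to 34.3) overlapped too. The peptidase Clpp was lowest with 17.0 (16.4 to 18.2). The order differed after HSP990 in wild type mice: Hspd1, at 141 and 115.5 CPM per kilobase, and Hspe1, at 113 and 101, then stood above Trap1, at 93.6 and 89.1, and below Hspa9 only. The levels of Hspd1 and Hspe1 are uncertain, because 64.8% and 53.2% of the 40-base windows of their transcripts occur unchanged elsewhere in the mm9 genome and each has a near-identical copy. The share was 14.7% for Hspa9, 2.6% for Clpx and 0.0% for the other 5 members. How reads from such windows were counted is not given in the sources used here, so fold changes and the ratio of Hspd1 to Hspe1 carry the same limit. Counts also depend on whether strand was used, which is not given in the sources used here: 11.6% of the exonic bases of Grpel1 overlap Tada2b, and 3.91% of those of Dnaja3 overlap Coro7 and 2.09% of those of Trap1 Dnase1, each on the opposite strand. A further 4.09% of Dnaja3 overlaps Vasn on the same strand, and Hspa9, Lonp1, Clpp and Clpx overlap no other exon.

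In wild type mice the chaperonin pair rose after HS, and no other member was called. Hspd1 stood at 98.7 and 89.3 CPM in the 2 control mice and at 221 and 221 after HS. It was 2.35-fold higher, or 1.24 on the log2 scale, with a standard error (SE) of 0.123 (adjusted p = 2.56e-05). Hspe1 stood at 26.5 and 24.4 CPM in control and at 61.3 and 68.0 in HS mice. It was thus 2.54-fold higher, or 1.34 on the log2 scale (SE 0.191, adjusted p = 0.00108). Control and HS mice were far apart for both genes. These 2 of 9 members were called in a comparison in which 2.06% of all genes tested were called, and both were also called by DESeq2 and with each mouse left out. The other 7 members had log2 fold changes of 0.05 to 0.24, all above 0, with a lowest adjusted p of 0.5. The largest was that of the peptidase Clpp (20.3 and 19.8 CPM in control, 24.7 and 22.6 in HS mice), and the 95% interval of its log2 fold change ran from -0.09 to 0.56. For Hspa9 (649.8 and 682 CPM in control, 801 and 764 in HS mice) the interval ran from -0.06 to 0.52. For Lonp1, Dnaja3 and Grpel1 the upper bounds were 0.31, 0.31 and 0.27, so a rise of the size of the chaperonin pair lay outside the intervals of all 7. In the same comparison 9 of 10 muscle fibre markers and 17 of 18 respiratory genes had values above 0 (medians 0.16 and 0.1), and all 4 macrophage and 4 adipocyte markers values below 0 (medians -0.32 and -0.96), with 0 called by edgeR or DESeq2 and 0, 1, 0 and 0 at an unadjusted p below 0.05.

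HSP990 raised the same pair in wild type mice. Hspd1 went from 108 and 106.5 CPM in vehicle mice to 342 and 279.7 CPM after HSP990, a 2.9-fold rise (1.54 on the log2 scale, SE 0.124, adjusted p = 1.3e-06). Hspe1 went from 19.2 and 22.1 to 87.7 and 78.3 CPM, a 4.02-fold rise (2.01 on the log2 scale, SE 0.195, adjusted p = 9.17e-06). Of all genes tested, 1.85% were called in this comparison, and the 2 calls held with DESeq2 and without each mouse. The other 7 members were all at or below their vehicle level here, with log2 fold changes of -0.39 to -0.01, and none was called. For 6 of them the unadjusted p was below 0.05, and the lowest adjusted p was 0.239. Clpp stood at 22.02 and 20.7 CPM in vehicle and 15.1 and 17.5 in HSP990 mice (log2 fold change -0.39, interval -0.72 to -0.06). Lonp1 stood at 167 and 162 CPM in vehicle and at 145 and 134 in HSP990 mice (-0.24, interval -0.44 to -0.04). Neither pair of groups overlapped. Trap1 (217 and 207 CPM after HSP990, both below the lower vehicle mouse at 241) and Grpel1 (109 and 114 against 101 and 91.2 CPM) had the same log2 fold change of -0.21. The value for Dnaja3, -0.23, depended on where vehicle mice lay: it was at 217 and 219 CPM in vehicle, 196 and 175 in HSP990 and 173 and 173 in the control mice of the HS experiment. Clpx was at 103 and 128 CPM in vehicle and 91.5 and 89.3 CPM after HSP990. Hspa9 (709 and 725 against 789.8 and 636 CPM) had its 2 treated mice on either side of the vehicle mice and a log2 fold change of -0.01. Other genes were also lower or higher as groups in this comparison. Of 18 respiratory genes 0 had values above 0 (median -0.17, summed level 26100 to 27830 CPM in vehicle and 21750 to 25750 in HSP990 mice), and of 10 muscle fibre markers 1 had (median -0.13, 217300 to 222300 and 201400 to 216000 CPM). All 4 macrophage markers (median 0.77, 20.9 to 22.1 and 31.5 to 50.2 CPM) and all 4 fibroblast markers (median 0.52, 563 to 572 and 792 to 803.5 CPM) had values above 0, as had 3 of 4 endothelial markers (median 0.6, 306.5 to 391 and 472 to 529.8 CPM). Of these lists 1 gene was called by edgeR, the macrophage marker Mrc1 (1.25), while DESeq2 called 1 gene each of the macrophage, fibroblast and endothelial lists. The part of these shifts in the values of the 7 members was not tested.

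**Figure D2:**
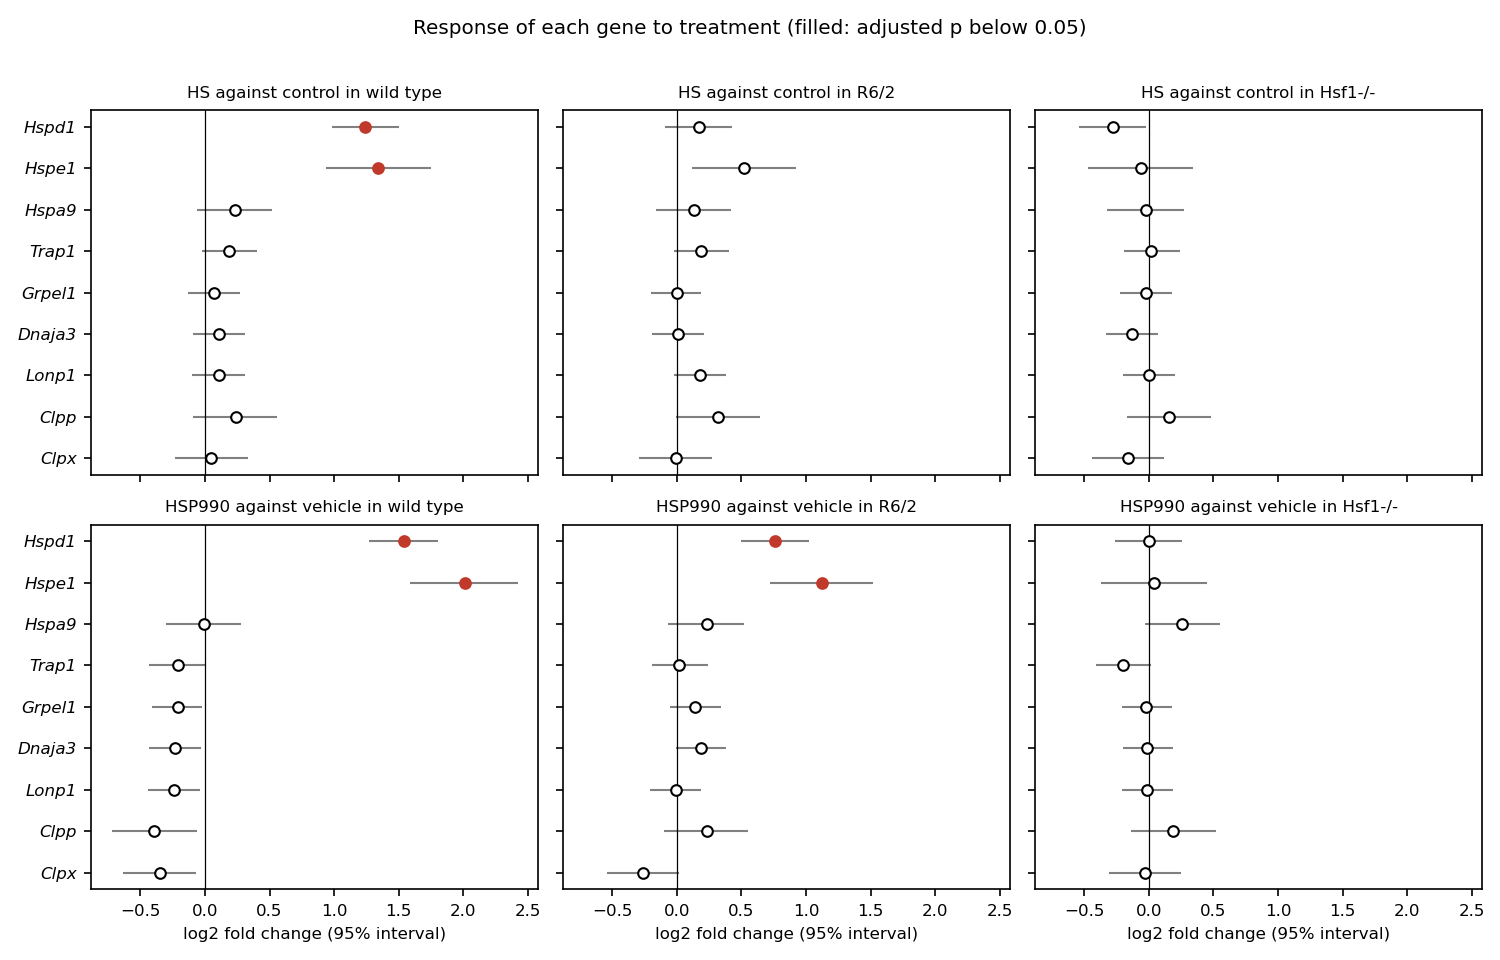
Log2 fold change with its 95% interval (x axis) of each of the 9 genes (y axis) after HS (top) and HSP990 (bottom) in wild type, R6/2 and Hsf1-/- mice. Filled points were called at an adjusted p below 0.05. The filled points are Hspd1 and Hspe1 in 3 of the 6 panels, at 1.24 and 1.34 (HS, wild type), 1.54 and 2.01 (HSP990, wild type) and 0.76 and 1.12 (HSP990, R6/2).

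In R6/2 mice the pair answered HSP990 but was not called after HS. After HS, Hspd1 was at 76.0 and 94.7 CPM against 79.1 and 72.6 in control, so that the groups overlapped (log2 fold change 0.17, interval -0.09 to 0.43, adjusted p = 0.763). Hspe1 was at 29.2 and 22.04 CPM after HS and at 17.35 and 18.5 in control mice (log2 fold change 0.52, interval 0.12 to 0.92, adjusted p = 0.423). The HS mouse with the higher Hspd1 had the lower Hspe1. By edgeR's test 0 of 9 members were called, where 0.0436% of all genes were. Hspe1 was the 1 member with an unadjusted p below 0.05, and DESeq2 called 0. After HSP990, Hspd1 was at 116 and 120.0 CPM against 74.7 and 64.5 in vehicle mice (0.76 on the log2 scale, SE 0.122, adjusted p = 0.00326). Hspe1 was at 30.1 and 34.4 CPM against 18.0 and 11.6 (1.12 on the log2 scale, SE 0.19, adjusted p = 0.00505). These 2 calls stood against 1.43% of all genes and DESeq2 made them too, but they were not firm. Without R6/2 vehicle replicate 2, the lowest library for both genes, the log2 fold changes were 0.66 (adjusted p = 0.091) and 0.84 (adjusted p = 0.11). Without R6/2 HSP990 replicate 2, Hspe1 had 1.02 (adjusted p = 0.063), and a fit of only the 4 libraries compared called neither. The other 7 members had log2 fold changes of -0.01 to 0.32 after HS and of -0.26 to 0.23 after HSP990, with lowest adjusted p values of 0.623 and 0.576. After HSP990 9 of 10 muscle fibre markers in R6/2 mice had values above 0 (median 0.39, summed level 40230 to 47320 CPM in vehicle and 48910 to 84280 in HSP990 mice), of which 0 were called by edgeR or DESeq2 and 4 had an unadjusted p below 0.05, and their part in the members' values was not tested.

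In Hsf1-/- mice no member was called after either treatment. Hspd1 stood at 70.1 and 77.1 CPM after HS, below the 87.2 and 91.5 of control mice (log2 fold change -0.28, interval -0.54 to -0.02, adjusted p = 0.51). Hspe1 stood at 15.6 and 15.3 CPM after HS and 17.7 and 14.6 in control mice (-0.06, interval -0.47 to 0.34). By edgeR's test 0 of 9 members were called, against 0.00727% of all genes. The unadjusted p was below 0.05 for 1 member, Hspd1, in the downward direction, and DESeq2 called 0. After HSP990, Hspd1 was at 79.9 and 79.0 CPM and in vehicle mice at 82.4 and 76.6, with a log2 fold change interval of -0.26 to 0.26. Hspe1 was at 13.8 and 15.2 CPM after HSP990 and at 16.1 and 12.2 in vehicle mice, with an interval of -0.37 to 0.45. Treated and vehicle mice overlapped for both genes. Here 0 of 9 members were called by edgeR, 0 had an unadjusted p below 0.05 and 0 were called by DESeq2, beside 0.218% of all genes called. The 3 cytosolic reference genes had no call in Hsf1-/- mice either, while 3 of 3 were called after each treatment in wild type mice, 1 of 3 (Hspa1b) after HS in R6/2 mice and 3 of 3 after HSP990 in R6/2 mice.

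The differences between genotypes were then tested directly, as the response in 1 genotype minus that in wild type mice. After HSP990, both genes of the pair responded less in Hsf1-/- mice: the difference was -1.54 for Hspd1 (SE 0.173, adjusted p = 0.00011) and -1.97 for Hspe1 (SE 0.273, adjusted p = 0.00106), with 0.422% of all genes called. Both held with each mouse left out. After HS the difference was -1.51 for Hspd1 (SE 0.173, adjusted p = 0.000418) and -1.41 for Hspe1 (SE 0.271, adjusted p = 0.0495), with 0.16% of all genes called. The call for Hspe1 was at the threshold and was lost without any 1 of the 8 mice concerned (replicate 1 or 2 of the control and HS groups of either genotype). The values ran from -1.54 without Hsf1-/- control replicate 2 (adjusted p = 0.092) to -1.26 without Hsf1-/- control replicate 1 (adjusted p = 0.28), and the highest adjusted p was 0.4, without wild type control replicate 2. That for Hspd1 held throughout. The corresponding differences in the other 7 members were -0.26 to -0.08 for HS and 0.02 to 0.58 for HSP990, with none called.

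Between R6/2 and wild type mice the HS response of Hspd1 differed by -1.07 (SE 0.172, adjusted p = 0.0171), the 1 member called, where 0.0727% of all genes were. The call did not survive leaving out R6/2 control replicate 1 (-1.0, adjusted p = 0.12), R6/2 HS replicate 1 (-0.92, adjusted p = 0.1), wild type control replicate 1 (-1.14, adjusted p = 0.081) or 2 (-0.99, adjusted p = 0.18), and wild type HS replicate 1 (-1.07, adjusted p = 0.081) or 2 (-1.06, adjusted p = 0.075). The difference for Hspe1, -0.83 (interval -1.39 to -0.26), had an adjusted p of 0.845. For HSP990 the differences of -0.78 for Hspd1 (interval -1.14 to -0.41, adjusted p = 0.299) and -0.88 for Hspe1 (interval -1.45 to -0.32, adjusted p = 0.471) were not called. By edgeR's test 0 of 9 members and 0.0% of all genes were called in that comparison, 5 members had an unadjusted p below 0.05, and DESeq2 called 1, Hspd1, at an adjusted p of 0.022. The other 3 of these 5 were Dnaja3 (0.42, interval 0.14 to 0.7), Clpp (0.62, interval 0.16 to 1.08) and Grpel1 (0.36, interval 0.08 to 0.64). They had lower values after HSP990 in wild type mice and higher ones in R6/2 mice. So the smaller response in R6/2 than in wild type mice passed the test for Hspd1 after HS only, and not with every mouse left out.

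HS and HSP990 were also compared with each other, each against its own control. In wild type mice the log2 response to HS minus that to HSP990 was -0.3 for Hspd1 (interval -0.66 to 0.06) and -0.66 for Hspe1 (interval -1.23 to -0.1, adjusted p = 0.242). It lay between 0.24 and 0.63 in the other 7 members, being largest in Clpp (interval 0.17 to 1.09) and lowest in Hspa9 (interval -0.17 to 0.65). By edgeR's test 0 of 9 members were called beside 2.38% of all genes, 7 had an unadjusted p below 0.05 and DESeq2 called 0. In R6/2 mice the difference was -0.59 for Hspd1 (interval -0.95 to -0.23, adjusted p = 0.115) and -0.61 for Hspe1 (interval -1.17 to -0.04, adjusted p = 0.419). By edgeR's test 0 members were called beside 1.63% of all genes, 2 had an unadjusted p below 0.05 and DESeq2 called 0. Without R6/2 HS replicate 2, the HS mouse with the higher Hspd1, the difference for Hspd1 was -0.76 and was called (adjusted p = 0.024).

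**Figure D3:**
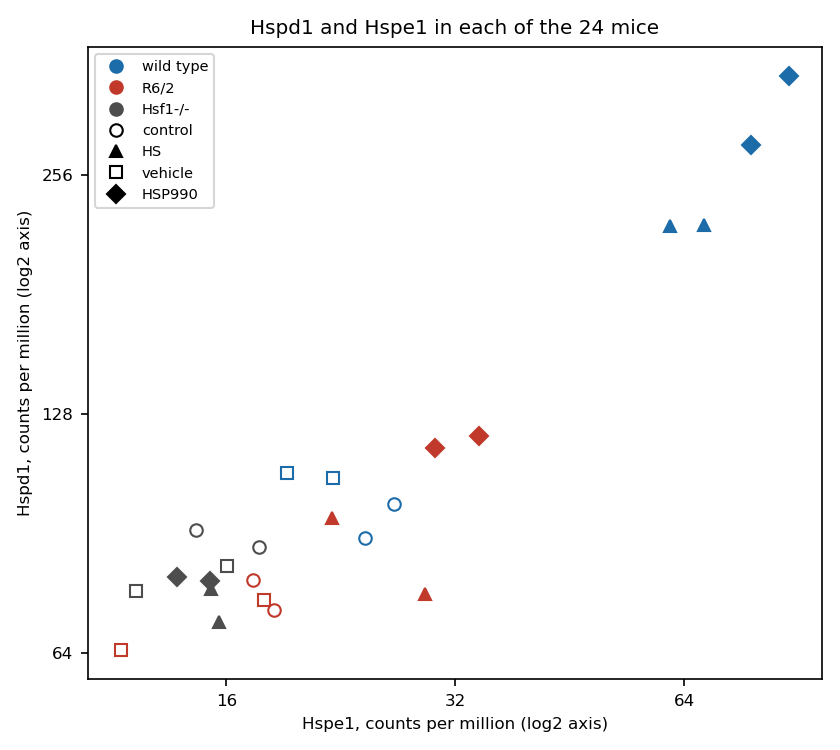
Level of Hspd1 (y axis) against that of Hspe1 (x axis) in each of the 24 mice, in CPM on log2 axes. Colours give the genotype and shapes the treatment, with filled shapes for HS and HSP990. The 4 treated wild type mice stand apart at the upper right, at 221 CPM or more of Hspd1 and 61.3 CPM or more of Hspe1, the R6/2 mice given HSP990 come next, and the Hsf1-/- mice lie together at the lower left, near the untreated R6/2 mice.

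The pair moved together across the study. Over the 12 group means of log2(CPM + 0.5), the Pearson r of Hspd1 and Hspe1 was 0.96, and each ranked 5 among the 11118 genes ordered by likeness to the other. The treated wild type groups stand apart from the rest in both genes, and all points share 1 scaling, so r is only a description. The 3 genes most like Hspd1 were Hspa1l (a testis HSP70; r = 0.981), Unc45b (a myosin chaperone; 0.979) and Cct6a (a subunit of the cytosolic chaperonin; 0.965). Those most like Hspe1 were Fkbp4 (an HSP90 co-chaperone; 0.971), Unc45b (0.967) and Hspa1l (0.964). With the other 7 members the pair had r values of -0.62 to 0.54 (median 0.2), whereas the 21 pairs among those 7 ran from -0.27 to 0.94 (median 0.72). Genes most like the others were Gfm1 (a mitochondrial elongation factor; 0.984), Mb (myoglobin, 1 of the muscle fibre markers; 0.982) and Tpm2 (a tropomyosin; 0.977) for Hspa9, and in first place Gps2 for Trap1 (0.986), Neurl2 for Grpel1 (0.983), Mtres1 for Dnaja3 (0.991), Eif2b1 for Lonp1 (0.972), Rangrf for Clpp (0.969) and Fzd4 for Clpx (0.935). The ratio of Hspd1 to Hspe1 counts within a library does not depend on scaling. It was 3.66 to 5.62 in the 4 untreated wild type mice, 3.61 and 3.26 after HS and 3.9 and 3.57 after HSP990. In R6/2 mice it was 3.93 to 5.54 untreated, 2.6 and 4.3 after HS and 3.85 and 3.49 after HSP990, so that the 2 R6/2 HS mice lay far apart and held the lowest ratio of the 24 libraries. In Hsf1-/- mice it was 4.93 to 6.3 untreated, 4.48 and 5.05 after HS and 5.8 and 5.18 after HSP990.

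Without treatment, 7 of the 9 members were lower in R6/2 than in wild type mice, control and vehicle mice being averaged. R6/2 muscle differed widely from wild type muscle, however, and 30.5% of all genes were called in this comparison, 15.4% of all genes as lower. Averaged so, Hspa9 and its partner Dnaja3 had the lowest log2 fold changes of the 9, while among vehicle mice Clpp (-1.06) lay between Dnaja3 (-1.09) and Hspa9 (-1.01). Hspa9 was at 649.8, 682, 709 and 725 CPM in wild type and 413, 408, 376 and 335 in R6/2 mice (control mice first), which is -0.85 on the log2 scale (SE 0.098, adjusted p = 1.03e-05). Dnaja3 was at 173, 173, 217 and 219 CPM in wild type and 112, 109.5, 104 and 101 in R6/2 mice (-0.87, SE 0.067, adjusted p = 3.67e-07). For Grpel1 the wild type mice lay at 109 to 119 CPM and the R6/2 mice at 65.6 to 87.5 (-0.6, adjusted p = 7.68e-06). The groups did not overlap for these 3 genes. Nor did they for Clpp (19.8 to 22.02 against 9.86 to 14.7 CPM, -0.77, adjusted p = 6.8e-05) and Trap1 (241 to 260 against 162 to 213 CPM, -0.47, adjusted p = 0.000112). Among the chaperonin pair, Hspd1 was at 89.3 to 108 CPM in wild type and 64.5 to 79.1 in R6/2 mice (-0.47, adjusted p = 0.000655) and Hspe1 at 19.2 to 26.5 and 11.6 to 18.5 CPM (-0.49, adjusted p = 0.0107). The protease Lonp1 (162 to 175.5 against 140.5 to 166 CPM, -0.15, interval -0.29 to -0.00, adjusted p = 0.115) and the unfoldase Clpx (100.3 to 128 against 104.5 to 129.9 CPM, 0.1, interval -0.1 to 0.3, adjusted p = 0.467) were not called. Clpp and Clpx, the subunits of 1 protease, thus differed in their values.

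These falls depended on the scaling. With library size alone, the median change over all genes (log2) moved from 0.05 to 0.66 and 4 members were called, beside 64.5% of all genes (61.5% higher and 3.06% lower). Then Hspa9 (-0.25) and Dnaja3 (-0.26) were still lower, and Lonp1 (0.46) and Clpx (0.7), not called before, were higher, while Hspd1 (0.14), Hspe1 (0.12), Trap1 (0.13), Grpel1 (0.01) and Clpp (-0.17) were not called. Relative to the median of all genes the values were alike under both scalings, for example -0.91 and -0.9 for Hspa9 and -0.52 and -0.51 for Hspd1. A change of scaling shifts all genes nearly alike, so this likeness would hold for any gene and does not test the falls. The 20 most abundant genes held 13.94 to 21.86% of the counts in R6/2 libraries and 32.54 to 39.78% in all others. Their part in the shift of the median was not tested. Taken by experiment, 5 members were called among control mice and 6 among vehicle mice. Hspe1 was called in neither (-0.51 and -0.48, adjusted p = 0.093 and 0.091), nor without R6/2 vehicle replicate 2 (-0.35, adjusted p = 0.053), and Hspd1 was not called among control mice (-0.31, adjusted p = 0.11). In these bulk samples fewer cells of a type and less RNA per cell cannot be told apart. Of 10 muscle fibre markers 9 were called lower in the same comparison, with summed levels of 192800 to 222300 CPM in the untreated wild type and 38800 to 69040 CPM in the untreated R6/2 mice. Their part in the falls of the members was not tested.

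**Figure D4:**
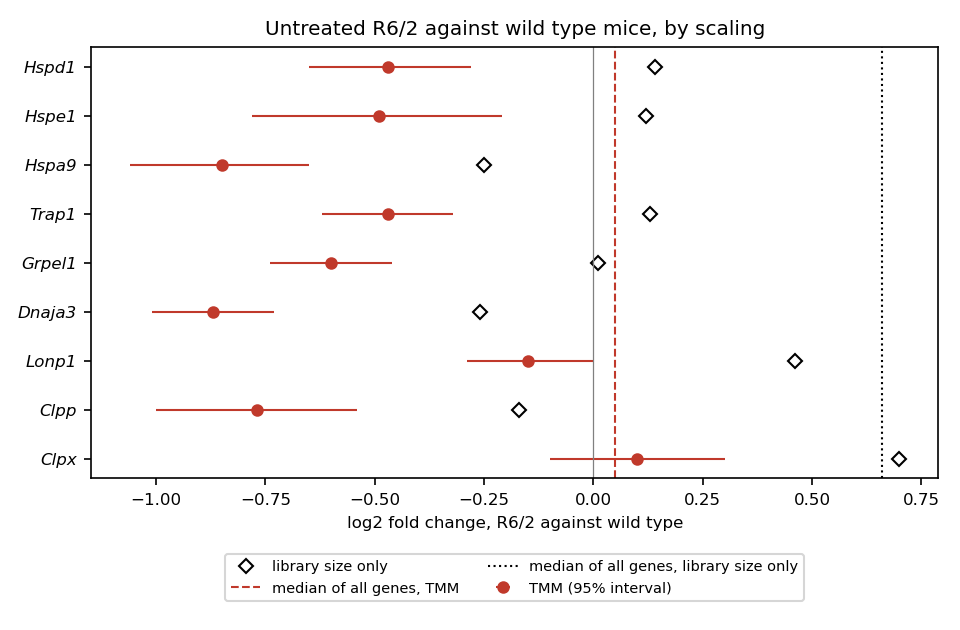
Log2 fold change between untreated R6/2 and wild type mice (x axis) of each gene (y axis). Red points and bars are the values and 95% intervals with TMM scaling, open diamonds the values with library size alone, and vertical lines the median of all genes under each (0.05 and 0.66). The members keep their distance from the median when the scaling changes, as any gene would, while the sign of Hspd1, Hspe1, Trap1, Grpel1 and Lonp1 turns.

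Mitochondrial genes of other functions were lower alongside, again depending on the scaling. Of 18 genes of the respiratory chain and mitochondrial content, 17 were called lower in untreated R6/2 mice and 0 higher (median log2 fold change -0.66), led by Sdhb, Sdha (both succinate dehydrogenase; -0.94 each) and Cyc1 (-0.91), while with library size alone 7 were called lower and 1 higher (median -0.05), beside 3.06% and 61.5% of all genes. Within a library the level of each member was therefore set against the mean log2 level of that list, a measure that no scaling changes beyond the 0.5 CPM added. The respiratory list stood at a mean log2 level of 9.85 to 9.98 in untreated wild type and of 9.06 to 9.47 in untreated R6/2 mice. Relative to it Hspd1 was at -3.45 to -3.15 in wild type and -3.28 to -2.82 in R6/2 mice, Grpel1 at -3.2 to -2.99 and -3.02 to -2.92, and Clpp at -5.59 to -5.47 and -5.68 to -5.44. These ranges overlapped. Hspe1 (-5.67 to -5.09 and -5.53 to -4.85), Hspa9 (-0.52 to -0.39 and -0.8 to -0.5) and Dnaja3 (-2.5 to -2.11 and -2.69 to -2.35) overlapped as well. By contrast Lonp1 lay higher against the respiratory list in every R6/2 mouse (-2.1 to -1.87) than in any wild type mouse (-2.59 to -2.39). Clpx did so too, at -2.72 to -2.14 against -3.28 to -2.89, and so did Trap1, narrowly, at -1.79 to -1.66 against -2.06 to -1.87. The list itself was lower in R6/2 mice (median -0.66 with TMM scaling), while the median of all genes was 0.05. A gene at that median would thus also lie higher against the list. The log2 fold changes of Lonp1, Clpx and Trap1 themselves were -0.15, 0.1 and -0.47. These differences against the list carry no test.

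**Figure D5:**
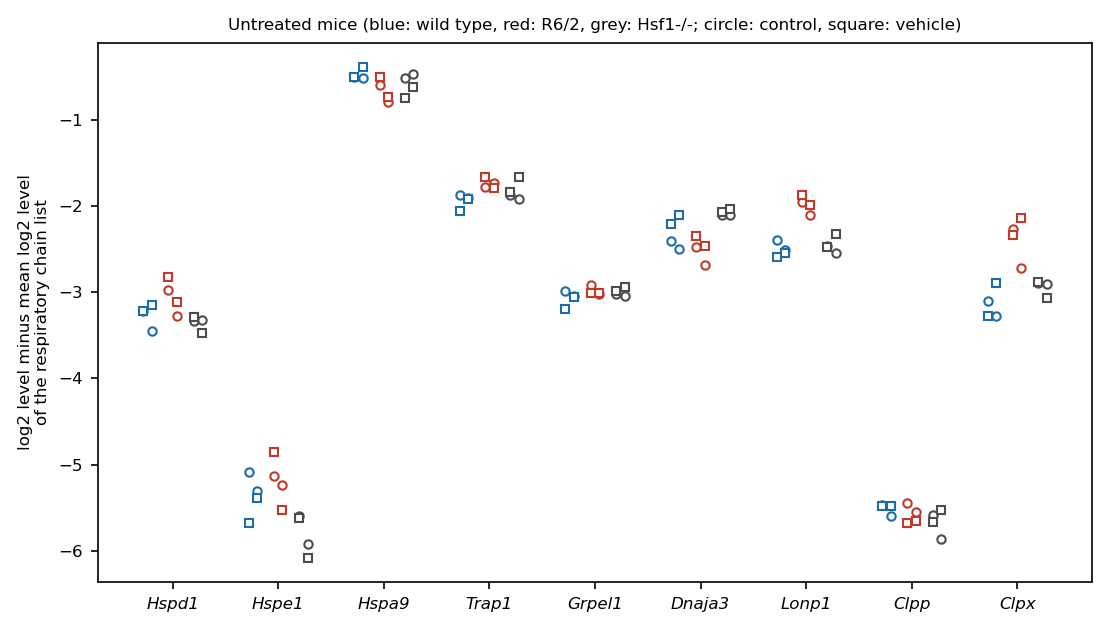
Log2 level of each gene minus the mean log2 level of 18 respiratory chain and mitochondrial genes in the same library (y axis), in untreated mice. Each symbol is 1 mouse, a circle for control and a square for vehicle, coloured by genotype. The R6/2 mice lie above the wild type mice for Lonp1, Clpx and narrowly Trap1, and the groups overlap for the other genes. The list itself was lower in R6/2 mice with TMM scaling.

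In untreated Hsf1-/- mice the lid Hspe1 was the 1 member called, at 17.7, 14.6, 16.1 and 12.2 CPM against 26.5, 24.4, 19.2 and 22.1 in wild type mice, with no overlap (-0.6 on the log2 scale, SE 0.137, adjusted p = 0.0451; 0.974% of all genes called). DESeq2 called it too. The call was lost without Hsf1-/- control replicate 1 (-0.68, adjusted p = 0.078) or 2 (-0.54, 0.17), without Hsf1-/- vehicle replicate 2 (-0.51, 0.17) and without wild type control replicate 1 (-0.57, 0.14) or 2 (-0.63, 0.13) or vehicle replicate 1 (-0.65, 0.092) or 2 (-0.55, 0.15). It was also lost with control mice only (-0.66, adjusted p = 0.088) or vehicle mice only (-0.55, adjusted p = 0.4). Hspd1 was at 76.6 to 91.5 CPM against 89.3 to 108 (-0.25, interval -0.43 to -0.07, adjusted p = 0.198). The other 7 members had log2 fold changes of -0.31 (Clpp) to 0.08 (Dnaja3), with a lowest adjusted p of 0.21.

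Further genes of mitochondrial protein quality control were not called after treatment either. Of 12 import motor components and other mitochondrial chaperones, 13 other mitochondrial proteases and 17 protein import channel genes, 0 were called by edgeR or by DESeq2 after HS or HSP990 in any of the 3 genotypes. In wild type mice 0, 0 and 0 of them had an unadjusted p below 0.05 after HS and 1, 1 and 0 after HSP990. Their median log2 fold changes in wild type mice were 0.07, 0.08 and -0.04 after HS and -0.17, -0.13 and -0.09 after HSP990, beside -0.01 and -0.0011 for all genes. In untreated R6/2 mice 5 of 12, 8 of 13 and 11 of 17 were lower with TMM scaling, beside 15.4% of all genes. With library size alone 0, 1 and 1 were lower and 7, 8 and 10 higher, which is near the 61.5% of all genes that were higher there. Lower with TMM scaling were, among others, the import motor J proteins Dnajc15 (-0.88) and Dnajc19 (-0.74), the processing peptidases Mipep (-0.88) and Pmpca (-0.73) and the carrier chaperone Timm10 (-1.08). Iba57 (0.59), an iron-sulphur assembly factor, and Spg7 (0.26), a protease of the inner membrane that was named after its value was seen, were higher.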

How the data were processed

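Quadriceps poly(A) RNA of 24 mice was sequenced with strand-specific, paired-end reads of 40 bases. The authors deposited raw counts per gene, and the submitters' processing notes name Bowtie, DESeq2 and the mm9 build. The counting program, the annotation and the strand setting are not given in the sources used here. Of 18669 genes, 18594 matched a symbol by gene identifier. Each sample's group was taken from the labels.

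The 9 genes, the companion lists and the tests were chosen with earlier results of these data known. A gene was tested if 10 or more libraries held 2 or more of its counts (13754 genes). A single model over 12 groups, with TMM scaling, was fitted in R 4.3.3 (edgeR 4.0.16, limma 3.58.1), with the quasi-likelihood test and Benjamini-Hochberg adjustment per comparison (threshold 0.05), for 14 comparisons. Control and vehicle mice were averaged for the untreated comparisons. Intervals are 95% intervals. A correlation over the replicate numbers gave no sign of a pairing of mice, which it could not exclude. Mice of a group differed by far more than sampling noise (chi-square per degree of freedom 17.96 to 105.7), so each counted as a replicate. It was 52.39 to 105.7 in R6/2, 22.7 to 31.47 in wild type and 17.96 to 75.14 in Hsf1-/- groups. The model shared 1 estimate of the spread over all groups, and whether this made it too small for R6/2 mice was not tested. Alternatives were RLE factors, library size only, no filter, filterByExpr, DESeq2 1.42.0, only the groups compared, a replicate block, control or vehicle groups only and each of 24 mice left out, with TMM without the 20 most abundant genes added after seeing the data. The scripts were tested on simulated data.

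The text names all 9 genes, Hsf1, the reference genes Hspa1b, Dnajb1 and Hsph1, up to 3 called genes per companion list and comparison with the largest change, and the 3 genes most like each member over 12 group means (11118 genes at a mean of at least 1 CPM). Companion lists covered the import motor, other mitochondrial proteases, import channels, mitochondrial stress, the respiratory chain, biogenesis, CCT, the endoplasmic reticulum and cell type markers. Shared sequence was searched in mm9 with minimap2 2.31-r1302, and promoter windows were those of RefSeq (GRCm38.p6).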

Additional observations from a re-analysis of the deposited data

Results flagged for a closer look

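The response of a member differed between genotypes, by the test of the difference itself, in 5 cases. After HS, Hspd1 differed by -1.07 on the log2 scale between R6/2 and wild type mice (0.17 against 1.24), with 0.0727% of all genes called. That call was lost when edgeR was fitted to only the groups compared (adjusted p = 0.44). Between Hsf1-/- and wild type mice the HS responses differed by -1.51 for Hspd1 (-0.28 against 1.24) and -1.41 for Hspe1 (-0.06 against 1.34). There 0.16% of all genes were called. The call for Hspe1 was lost with the replicate block (edgeR, adjusted p = 0.051) and with library size alone (adjusted p = 0.2). The HSP990 responses differed between Hsf1-/- and wild type mice by -1.54 for Hspd1 (0.00 against 1.54) and -1.97 for Hspe1 (0.04 against 2.01), with 0.422% of all genes called. With 2 mice in each group, single outlying mice could not be tested for.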

How the results depend on the processing

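Over 14 comparisons the log2 fold changes of the 9 members were recomputed under other settings, which gave 1836 values, of which 1790 kept their side of the threshold (82 of these, never called, changed sign), 38 lost and 3 gained a call, and 5 more turned in sign. The 5 were log2 fold changes between untreated R6/2 and wild type mice with library size alone: Hspd1 0.14, Hspe1 0.12, Trap1 0.13, Grpel1 0.01 and Lonp1 0.46. That setting called 4 members in place of 7 (2 of the 7, Hspa9 and Dnaja3, and in the other direction Lonp1 and Clpx), and it moves the median of all genes from 0.05 to 0.66. It left 1 of 2 for the HS response in Hsf1-/- minus wild type mice. Fitting only the groups compared left 0 of 2 members called after HSP990 in R6/2 mice, 0 of 1 in the HS response in R6/2 minus wild type mice and 0 of 1 between untreated Hsf1-/- and wild type mice; the last was also 0 with RLE size factors, with control groups only and with vehicle groups only. DESeq2 called 1 member in place of 0 for the HSP990 response in R6/2 minus wild type mice. The cause was not tested.

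With 1 mouse left out at a time, the number of members called ran from 0 to 2 after HSP990 in R6/2 mice, from 0 to 1 in the HS response in R6/2 minus wild type mice, from 1 to 1 in that in Hsf1-/- minus wild type mice, from 0 to 1 in HS minus HSP990 in R6/2 mice and from 0 to 1 between untreated Hsf1-/- and wild type mice. Where that leaves 1 mouse in a group, it is assumed to vary like the other groups. No pairing of mice by replicate number was seen. Same-numbered mice of a treated group and its control had correlations of -0.2 to 0.24, within the -0.33 to 0.35 of all 66 pairs of groups. With 2 mice a group and a range that includes these pairs, this cannot show that mice were unpaired. A fit with the replicate block left 1 of 2 members called for the HS response in Hsf1-/- minus wild type mice (Hspe1, -1.41, adjusted p = 0.051) and changed no other call. TMM scaling without the 20 most abundant genes, chosen after seeing the data, changed no call. With 2 mice a group, intervals of single log2 fold changes were about as wide as the smaller changes seen, so a member without a call may still differ.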

Other observations

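Other chaperone compartments were described from lists that include no member. Of the 8 subunits of the cytosolic chaperonin CCT, which folds actin and tubulin, 3 were called after HSP990 in wild type mice, beside 1.85% of all genes. They were Cct7 (log2 fold change 0.75), Cct3 (0.6) and Cct6a (0.52). In R6/2 mice given HSP990 1 was called, Cct6a (0.43), beside 1.43% of all genes. DESeq2 called 3 subunits after HSP990 in wild type and 2 in R6/2 mice. After HS in wild type mice all 8 had values above 0 (median 0.2). However, 0 were called by edgeR, beside 2.06% of all genes, 1 was called by DESeq2 and 4 had an unadjusted p below 0.05. Of 14 chaperones of the endoplasmic reticulum, 1 (Pdia3, a disulphide isomerase, at 0.63) was called after HSP990 in wild type mice, beside 1.85% of all genes. After HS 0 of the 14 were called there by edgeR or DESeq2, with 2 at an unadjusted p below 0.05.

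Of 11 transcription factors and targets of the mitochondrial and integrated stress responses, 1 was called after HS in wild type mice, beside 2.06% of all genes. It was the transcription factor Cebpb (1.93). After HS in R6/2 and Hsf1-/- mice edgeR called 0 of the 11, beside 0.0436% and 0.00727% of all genes, and DESeq2 called 1 in each. After HSP990 in wild type mice 0 were called by edgeR, beside 1.85% of all genes, 1 was called by DESeq2 and 2 had an unadjusted p below 0.05. In Hsf1-/- mice given HSP990, where Hspd1 and Hspe1 had no call, edgeR called 5, beside 0.218% of all genes, and DESeq2 called 7. Fgf21 (6.06, standard error 1.035, adjusted p = 0.0441) and Trib3 (5.84, standard error 0.461, adjusted p = 4.22e-06) had the largest changes by edgeR. The others were the mitochondrial folate enzyme Mthfd2 (3.27, standard error 0.31, adjusted p = 2.64e-05), Ddit3 (2.78) and the serine synthesis enzyme Psat1 (2.31). Ddit3 and Psat1 were named after their values were seen. The difference from the wild type response was itself called for Trib3 (5.32) and Mthfd2 (2.18), beside 0.422% of all genes. Of 9 regulators of mitochondrial biogenesis, Ppargc1a, which encodes the coactivator PGC-1 alpha, was called after HS in wild type (2.05) and in Hsf1-/- mice (3.12). Of all genes 2.06% and 0.00727% were called there, and in Hsf1-/- mice Ppargc1a was the only gene called. In untreated R6/2 mice with TMM scaling, Ppargc1b (-1.1), Tfam (-0.52) and Tfb1m (-0.42) were lower, beside 15.4% of all genes. Gabpa (0.4), named after its value was seen, was higher, beside 15.1% of all genes. With library size alone 1 of the 9 was called lower and 5 higher, the latter near the 61.5% of all genes that were higher there.

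Among the markers of other cell types, summed levels in untreated wild type and R6/2 mice were 306.5 to 390.6 and 309.6 to 335 CPM for 4 endothelial genes, 20.9 to 40.7 and 29.1 to 41.0 for 4 macrophage genes, and 33.8 to 355 and 26.6 to 51.8 for 4 adipocyte genes. For 4 fibroblast genes they were 563 to 881 and 599.8 to 728, for 4 Schwann cell genes 122 to 173 and 114 to 159.6, for 2 satellite cell genes 4.89 to 7.41 and 8.49 to 11.3, and for 2 of 3 blood genes 6.08 to 10.6 and 2.83 to 5.97. No marker was at 0 in every library. With TMM scaling, edgeR called the adipocyte markers Plin1 (-2.43) and Cidec (-1.93) lower in untreated R6/2 mice, beside 15.4% of all genes. Higher were the satellite cell marker Pax7 (0.8) and the fibroblast marker Pdgfra (0.48), beside 15.1% of all genes. With library size alone 1 adipocyte marker was called lower, and 3 fibroblast and 2 satellite cell markers higher, as were 3 endothelial, 3 macrophage and 2 Schwann cell markers, beside 61.5% of all genes.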
